A study of Homo sapiens with 4 samples.

Results

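The genes described here are SRF, the serum response factor, and 9 genes of the actin cytoskeleton that are linked to it: ACTB, ACTG1, VCL, MYL9, TAGLN, FHL2, TPM1, CALD1 and FLNA. They were chosen by name, as every gene probe on the array that carries 1 of these 10 gene names, which gave 17 probes out of 34127. These 10 genes were among 27224 gene names with a value on all 4 arrays. Their mRNA was measured on 1-colour Agilent arrays in LNCaP and PC3, established human prostate cancer cell lines. LNCaP responds to androgen, and PC3 grows without it. The groups were LNCaP control and PC3 control, labelled as not treated, and LNCaP ATO and PC3 ATO, exposed to 10 µM atorvastatin (ATO) for 24 h. All 4 groups were grown in RPMI medium with serum, and each was measured on 1 array, so that no difference below has a replicate check. The study asked how the lines differ in their response to ATO.

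SRF is a transcription factor that binds a short DNA element, the CArG box, in the promoters of many cytoskeletal genes. Its cofactors of the MRTF family, named MKL1 and MKL2 on this array, are held in the cytoplasm by unpolymerised actin and enter the nucleus when small GTPases such as RHOA drive actin into filaments, so that the genes for actin and its partners are read according to the state of actin itself. These GTPases need a prenyl lipid, made in the same pathway as cholesterol, to sit in the membrane, and statins such as ATO block that pathway at HMG-CoA reductase.

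Each value is the intensity of a probe in scanner units. Ratios are on the log2 scale after each array was divided by its 75th percentile of intensity, and are given as ATO over control or as PC3 over LNCaP. Of 43118 gene spots per array, between 48.46% and 52.92% were well above background, which is the scanner software's own call, and 0 were saturated. Probes printed more than once on an array gave a technical SD of 0.13 for a log2 ratio, a spread between spots and not between cultures. The markers of the lines followed their labels: KLK3 and TMPRSS2, known for LNCaP, were higher in LNCaP control, and CAV1, CD44 and VIM, 3 of 3 listed for PC3, were higher in PC3 control. Whether fewer cells or less RNA per cell lay behind a lower value cannot be told apart in such bulk samples.

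In PC3 cells all 10 genes were lower after ATO than in the control, by log2 ratios from -0.01 for TPM1 to -1.11 for TAGLN, except that VCL and TPM1 turned to 0.04 and 0.18 when arrays were scaled to the 50th percentile. A difference of at least 1.5-fold was met by 4 of the 10 genes, SRF, ACTG1, MYL9 and TAGLN, all lower, and by 0 in the higher direction. Over all 13815 genes with a PC3 value, 18.5% differed by at least 1.5-fold, 10.3% lower and 8.2% higher. The median log2 ratio of the 10 genes was -0.42, beside -0.0058 over all genes, and 50.7% of all genes had a ratio below 0. At the level of probes, 16 of the 17 were well above background on both PC3 arrays, and all 16 were lower after ATO. Markers of the lines also differed with ATO: CAV1, the coat protein of caveolae, was 2.39-fold lower and TMPRSS2 2.03-fold higher in PC3 ATO, and VIM was 1.98-fold higher in LNCaP ATO. The second CAV1 probe gave a PC3 log2 ratio of -0.78, against -1.26 by the brighter. VIM was dim in LNCaP, at 65.3 units in the control and 138 after ATO. The brighter CAV1 probe and the VIM probe lay in a bright local background on at least 1 array. The part of these markers in the values of the 10 genes was not tested.

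In LNCaP cells the same genes lay near their control values. FHL2 was not well above background on either LNCaP array, MYL9 was so on the control array only, and the other 8 genes had log2 ratios between -0.20 for ACTG1 and 0.27 for VCL, with 7 above 0. The sign turned for ACTB (-0.07) with normexp background correction, and SRF lay within 0.01 of 0. Of the 9 genes with a value, MYL9 entered as no change, 0 were at least 1.5-fold higher and 0 lower, where 4.75% of 13739 genes did, 2.77% higher and 1.99% lower. Taken at their measured values, FHL2 and MYL9 would pass this limit, at intensities not well above background after ATO. The median of the 9 was 0.075, beside 0.0 over all genes.

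**Figure D1:**
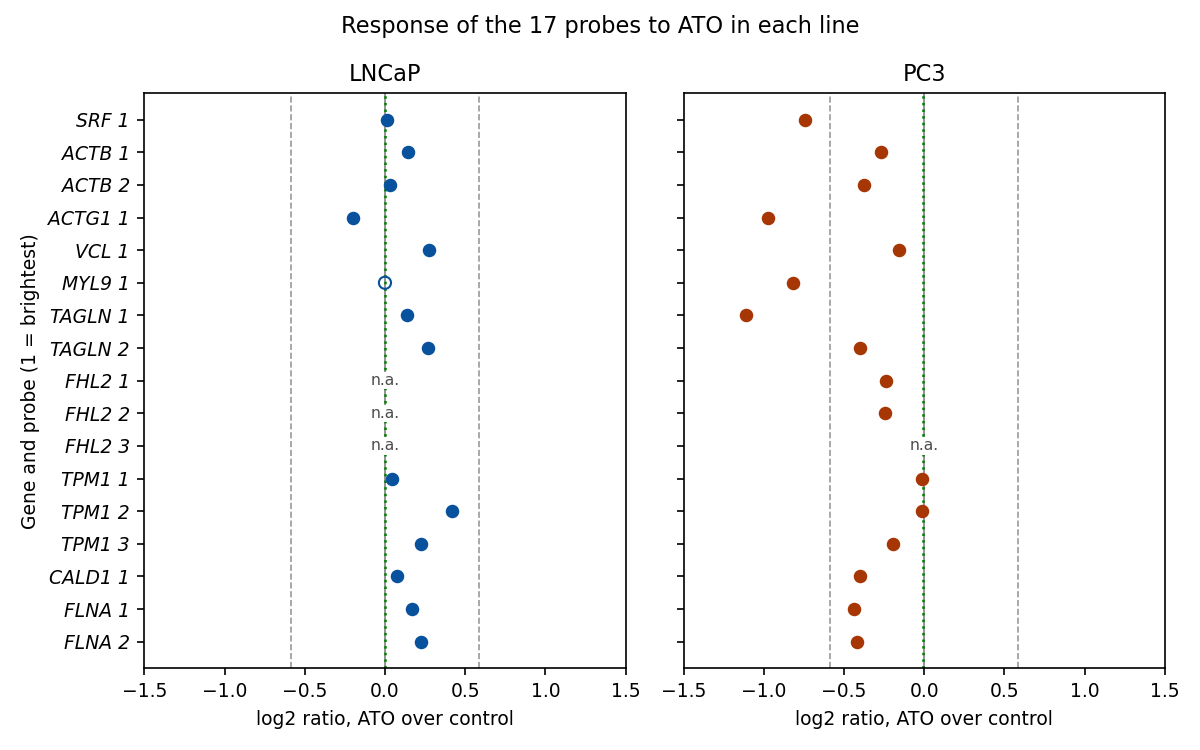
The log2 ratio of ATO over control is plotted for each probe of the 10 genes in LNCaP and in PC3, 1 array per group, with the 1.5-fold limits as dashed lines and the median of all genes as a green dotted line. Filled points were measured on both arrays, the open point of MYL9 is a bound entered as no change, and n.a. marks probes not well above background. In PC3 all 16 measured probes lie below 0, and in LNCaP 12 of 13 lie above 0.

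SRF itself, the transcription factor, read 155 units in LNCaP control and 167 in LNCaP ATO, and 245 in PC3 control and 142 in PC3 ATO. Relative to the 75th percentile, PC3 control stood highest and PC3 ATO lowest, although with scaling to the 50th percentile the controls differed by only -0.02, and the LNCaP arrays did not differ beyond the technical spread. The log2 ratio was -0.74 in PC3, 1.67-fold lower, and 0.01 in LNCaP. The single SRF probe lay on the plus strand at chr6:43256263-43256322 of the hg18 build. The genes that encode SRF's cofactors were close to their controls. MKL1 had log2 ratios of -0.08 in PC3 and -0.13 in LNCaP, and MKL2 0.06 and -0.04. ELK1 and ELK3, ternary complex factors that bind next to SRF, had PC3 ratios of -0.20 and -0.36. Of 4 cofactor genes with a PC3 value, 0 differed by 1.5-fold, and MYOCD, the cofactor of heart and smooth muscle, was not well above background on any array.

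The CArG box was looked for in RefSeq promoters (GRCh38.p14, 250 bases before to 50 after each start), in its strict form, which reads the same on both strands. Of 35116 promoters, 454 held it, or 1.29%. Counted by gene, 438 of 27305 held it in at least 1 promoter, or 1.6%. Among the genes described here, 7 were in the promoter table, and 4 of them held a box: SRF, ACTG1, FLNA and FHL2. VCL, TPM1 and CALD1 held none in this window, and ACTB, MYL9 and TAGLN were not matched. The genes were chosen as linked to SRF, so their share with a box is not an independent result. The 120 bases that end just before the start are shown for these 4 genes, since they show where the element that names the group lies, with the box in capitals and the strand of the gene read 5′ to 3′. SRF had 2 promoters, of which 1 held a box. That promoter lies on the plus strand at chr6:43171149-43171268 and holds the box 2 times, the second ending at the base before the start. ACTG1 lies on the minus strand at chr17:81512800-81512919 and FLNA on the minus strand at chrX:154374635-154374754, each with a box that begins 94 bases before the start. FHL2, also on the minus strand, has alternative starts, and a box lies before the start at chr2:105438514-105438633 and before that at chr2:105399052-105399171.
SRF promoter: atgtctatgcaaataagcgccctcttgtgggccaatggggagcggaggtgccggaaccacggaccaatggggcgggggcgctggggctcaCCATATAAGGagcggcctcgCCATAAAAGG
ACTG1 promoter: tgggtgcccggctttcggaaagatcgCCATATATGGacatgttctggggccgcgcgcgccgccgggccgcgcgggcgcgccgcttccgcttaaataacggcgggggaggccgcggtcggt
FLNA promoter: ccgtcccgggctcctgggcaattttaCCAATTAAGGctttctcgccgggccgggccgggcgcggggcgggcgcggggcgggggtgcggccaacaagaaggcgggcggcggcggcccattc
FHL2 promoter, upstream start: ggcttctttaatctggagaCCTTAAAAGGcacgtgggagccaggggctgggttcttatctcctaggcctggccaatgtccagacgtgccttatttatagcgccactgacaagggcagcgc
FHL2 promoter, downstream start: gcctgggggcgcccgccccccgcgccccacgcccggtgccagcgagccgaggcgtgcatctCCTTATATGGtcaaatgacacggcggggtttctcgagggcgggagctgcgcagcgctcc

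In PC3 the 4 genes with a box had log2 ratios of -0.97 (ACTG1), -0.74 (SRF), -0.44 (FLNA) and -0.24 (FHL2), and the 3 without had -0.40 (CALD1), -0.16 (VCL) and -0.01 (TPM1). Among these 7 genes the 3 lowest ratios belonged to genes with a box, and the ranges overlapped through FHL2 and CALD1. TAGLN (-1.11) and MYL9 (-0.82), both lower than SRF, were not matched, so whether they hold a box is not known here. Among the other 131 genes with a box and a PC3 value, 13 were at least 1.5-fold lower and 17 higher, with a median of 0.04. The share lower was 9.92% with a box and 9.5% over 8292 genes without.

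The cytoplasmic actins are the building blocks of the filaments in every cell. ACTG1, gamma actin, read 13328 units in LNCaP control and 12420 in LNCaP ATO, and 17090 in PC3 control and 8423 in PC3 ATO. Its PC3 ratio of -0.97 was a 1.96-fold lower value, and in LNCaP the ratio was -0.20, the only negative one among the measured genes of that line. PC3 control lay 0.12 above LNCaP control, within the technical spread, and -0.33 from it with scaling to the 50th percentile. The probe was at chr17:77092161-77092220 (hg18, minus strand).

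ACTB, beta actin, had a pair of probes in the same stretch of the gene, at chr7:5533313-5533372 and chr7:5533707-5533766 (hg18, minus strand). The brighter probe read 84890 units in LNCaP control and 100512 in LNCaP ATO, and 151802 in PC3 control and 121717 in PC3 ATO. The other, printed as 10 spots, read 62587, 68655, 132867 and 98974 in the same order, with an SD over its spots of 0.05, 0.06, 0.09 and 0.07 on the log2 scale. Both probes put PC3 control highest, and their PC3 log2 ratios were -0.27 and -0.38, beyond the technical SD of 0.13 and short of 1.5-fold. With scaling to the 50th percentile they were -0.08, within that SD, and -0.18, where the median of all genes was 0.19. In LNCaP the ratios were 0.14 and 0.03. The second of these rests on the removal of 1 outlier spot from the LNCaP ATO array, since with it the value was -0.22. Actin was the reference gene of the study's quantitative PCR, so its level is of use beyond the cytoskeleton. GAPDH, another common reference gene and an enzyme of glycolysis, had ratios of 0.08 in PC3 and -0.06 in LNCaP.

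**Figure D2:**
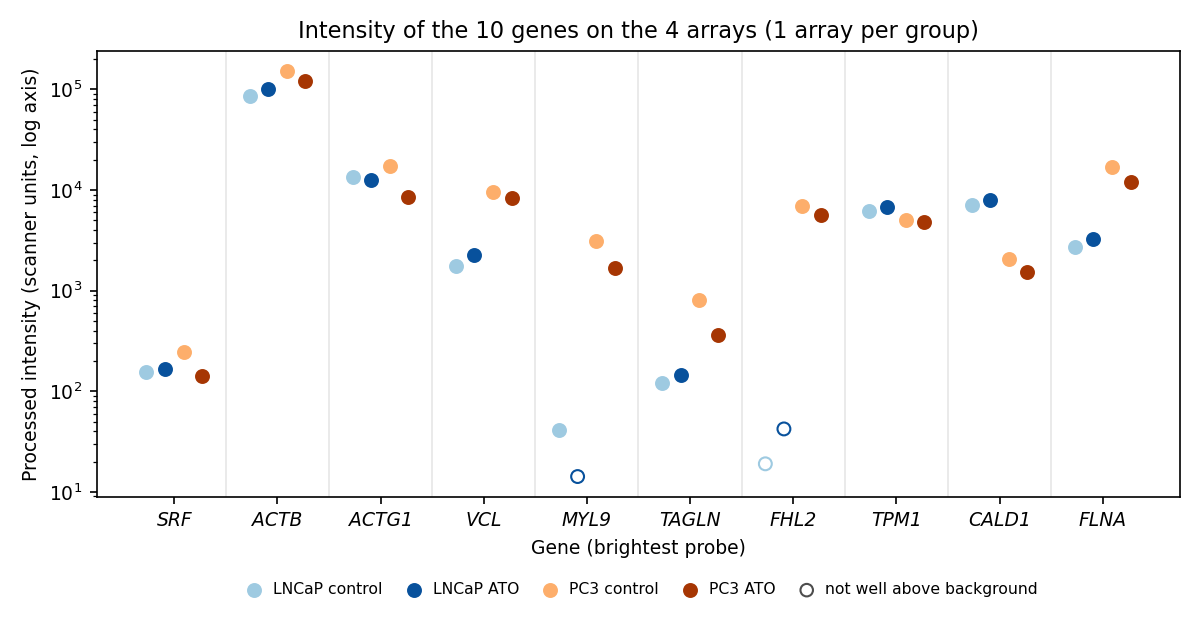
The processed intensity of the brightest probe of each of the 10 genes, in scanner units before scaling and on a log axis, is plotted for the 4 groups with 1 array each, and open points mark values not well above background. PC3 control is highest for 8 genes and LNCaP ATO for TPM1 and CALD1, although with scaling to the 50th percentile PC3 control falls below LNCaP control for SRF and ACTG1. Heights compare groups within a gene and not genes with each other.

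The proteins TAGLN and MYL9 are best known from contractile cells. TAGLN, also called SM22 alpha, binds along actin filaments, and its brighter probe at chr11:116580365-116580424 (hg18, plus strand) read 122 units in LNCaP control and 144 in LNCaP ATO, and 808 in PC3 control and 362 in PC3 ATO. The PC3 ratio of -1.11, 2.16-fold lower, was the lowest among the 10 genes, and the LNCaP ratio was 0.14. PC3 ATO still stood above both LNCaP arrays. The other TAGLN probe lay upstream and its match spans 390 bases of the genome at chr11:116579784-116580173, so that its 60 bases are not contiguous there. It read 58.4, 75.3, 334 and 244 units in the same order, for ratios of -0.40 in PC3 and 0.27 in LNCaP. The PC3 values of the probes therefore differed by more than the technical spread, and the second fell short of 1.5-fold. That probe lay in a bright local background on the PC3 ATO array, 206 units against 86 on PC3 control, whose part in the difference was not tested. Its sequence is shown, with that of the MYL9 probe, because the TAGLN result turns on which of its probes is read.
TAGLN, second probe: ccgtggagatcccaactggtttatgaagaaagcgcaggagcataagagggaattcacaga
MYL9 probe: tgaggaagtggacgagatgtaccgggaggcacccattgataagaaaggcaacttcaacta

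MYL9, a regulatory light chain of myosin II that is switched on by phosphorylation, read 41.3 units in LNCaP control and 14.2 in LNCaP ATO, and 3076 in PC3 control and 1690 in PC3 ATO at chr20:34610955-34611014 (hg18, plus strand). The PC3 arrays stood far above the LNCaP arrays. The PC3 ratio was -0.82, 1.76-fold lower. In LNCaP the ATO value was not well above background, and the lowest intensity that was so on that array was 54.71, above the control's own reading, so that no fold can be given.

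The genes whose proteins link and carry filaments had PC3 ratios short of 1.5-fold. FLNA, filamin A, joins filaments into networks, and its brighter probe at chrX:153230458-153230517 (hg18, minus strand) read 2711 units in LNCaP control and 3265 in LNCaP ATO, and 16713 in PC3 control and 11917 in PC3 ATO. The other FLNA probe, at chrX:153243038-153243097, read 167, 209, 1069 and 774. Both probes gave nearly the same picture, with log2 ratios of -0.44 and -0.42 in PC3 and 0.17 and 0.23 in LNCaP, although the dimmer lay in a bright local background on the LNCaP ATO array. With normexp background correction the FLNA probes parted in PC3, at -0.37 for the brighter and -0.62 for the dimmer, the latter past 1.5-fold. VCL, vinculin, ties filaments to adhesion sites and read 1761, 2282, 9578 and 8315 units at chr10:75549233-75549292 (hg18, plus strand). Its ratios were -0.16 in PC3, close to the technical spread, and 0.27 in LNCaP.

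FHL2, a LIM domain protein that can bind SRF and enters the nucleus, was well above background on the PC3 arrays only. Its probe of 10 spots at chr2:105343734-105343793 (hg18, minus strand) read 6865 units in PC3 control and 5640 in PC3 ATO, with an SD over spots of 0.07 on each, and 19.0 and 42.2 in LNCaP control and LNCaP ATO, neither well above background. A second probe, at chr2:105356453-105356512, read 3747 and 3058 in PC3. The PC3 ratio was -0.24 for both. The third FHL2 probe was not well above background on any array.

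TPM1, tropomyosin 1, lies along filaments and steadies them, and was the closest of the 10 to no change in PC3. Its brightest probe at chr15:61150414-61150473 (hg18, plus strand) read 6150 units in LNCaP control and 6803 in LNCaP ATO, and 5002 in PC3 control and 4788 in PC3 ATO, for ratios of -0.01 in PC3 and 0.05 in LNCaP. The next probe read 2025, 2907, 2300 and 2206, and the third 1908, 2395, 1626 and 1376. Their PC3 ratios were -0.01 and -0.19 and their LNCaP ratios 0.42 and 0.23. The latter pair is shown because they share 26 bases, in capitals, and are not independent measurements, and because both lay in a bright local background on the LNCaP ATO array, 189 and 148 units, and on PC3 control, 130 and 196 units. The second probe lay at chr15:61141469-61141528, and the match of the third spans chr15:61140494-61141494.
TPM1, second probe: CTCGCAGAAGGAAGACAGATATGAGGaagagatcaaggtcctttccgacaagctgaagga
TPM1, dimmest probe: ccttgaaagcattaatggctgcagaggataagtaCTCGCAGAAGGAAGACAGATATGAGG

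CALD1, caldesmon, blocks myosin's access to actin and read 7096 units in LNCaP control and 8014 in LNCaP ATO, and 2073 in PC3 control and 1518 in PC3 ATO at chr7:134305737-134305796 (hg18, plus strand). The LNCaP arrays stood above the PC3 arrays, the reverse of most of the other genes. The ratio was -0.40 in PC3 and 0.08 in LNCaP, the second within the technical spread.

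Before treatment the lines already differed widely in these genes. At 2-fold or more, 5 of the 10 genes were higher in PC3 control than in LNCaP control and 1 was lower, where 39.6% of 15237 genes differed by as much, 20.6% higher and 19% lower. The median log2 difference of the 10 genes was 1.40, against -0.047 over all genes. FHL2 was at least 212-fold higher in PC3, MYL9 62.8-fold, TAGLN 5.58-fold, FLNA 5.21-fold and VCL 4.59-fold, and CALD1 was 4.05-fold lower. The sizes for FHL2 and MYL9 depend on the background: on the log2 scale they were 7.73 and 5.97, and with normexp background correction 5.86 and 4.60. The other 4 genes, SRF, ACTB, ACTG1 and TPM1, differed by less than 2-fold, although the log2 difference of ACTB, 0.59, reached 2-fold with spike-in scaling (1.10), quantile normalization (1.01) and, at the limit, cyclic loess, and was 0.15 with the 50th percentile. This comparison and the PC3 response share the PC3 control array.

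Set side by side, the responses of the lines were as follows. Among the 10 genes, 8 were well above background on all 4 arrays, and all 8 had a lower ratio in PC3 than in LNCaP, with a median difference of -0.54. Over 11016 genes the median difference was -0.0007, with quartiles of -0.23 and 0.22 and a 5th percentile of -0.67, and 50.1% were below 0. With scaling to the 50th percentile the median over the 8 was -0.33 against 0.21 over all genes, and the difference of TPM1 lay above 0. This difference has no residual degrees of freedom and was not tested.

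The only test the arrays allow treats the lines as replicates of the treatment, in limma with cell line as a block and 1 residual degree of freedom. Of 11902 genes, 0 passed an adjusted p of 0.05 (0% of genes), with a smallest adjusted p of 0.762, and 4.47% had an unadjusted p under 0.05. Of the genes described here 9 entered the test, all but FHL2, 0 passed and 1 had an unadjusted p under 0.05. That gene was MYL9, with a mean log2 ratio of -1.23 (95% confidence interval -1.97 to -0.49) and limma's adjusted p = 0.762, and it rests on the LNCaP ATO value that was not well above background. ACTG1, lower in both lines, had a mean of -0.59 with limma's unadjusted p = 0.0795. The mean was below 0 for 7 of the 9, and the share below 0 over all tested genes was not computed. Each mean joins both lines, and in LNCaP 7 of the 8 measured genes had ratios above 0.

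Related genes were read from lists written for this work. Of 9 other actin and myosin genes with a PC3 value, 3 were at least 1.5-fold lower and 0 higher, with a median of -0.06. They were the smooth muscle genes. ACTG2, smooth muscle gamma actin, read 777 units in PC3 control and 245 in PC3 ATO, a log2 ratio of -1.62. ACTA2, smooth muscle alpha actin, read 153 and 44.9, the latter not well above background, and was at least 2.75-fold lower. MYH11, smooth muscle myosin, named here for its value, read 111 and 14.6 and was at least 2-fold lower by a bound, and both of these probes lay in bright local backgrounds. In LNCaP, ACTA2 read 85.6 and 145 units, a ratio of 0.66. The myosin light chains MYL12A and MYL12B, relatives of MYL9, had PC3 ratios of 0.18 and 0.21, and MYLK, the kinase that phosphorylates them, had 0.29 by its brighter probe and -0.37 by the other.

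Smooth muscle markers were few in these lines: 2, 1, 3 and 2 of 6 were well above background in LNCaP control and LNCaP ATO and in PC3 control and PC3 ATO, respectively, and MYOCD and LMOD1 were so on no array. Their summed intensity was 2020, 2120, 5080 and 4150 units in that order, most of it from SMTN, and ACTG2 and MYH11, both named above, belong to the list. Of 5 fibroblast markers only COL1A1 was well above background, on each array, with a summed intensity between 107 and 182 units. Their part in the values above was not tested.

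Among 23 other actin binding genes linked to SRF, 2 were at least 1.5-fold higher in PC3 after ATO and 2 lower, with a median of 0.11, above that of all genes. FLNC, filamin C, was lower (-0.80) and so was CNN3, a calponin (-0.65), while ZYX, zyxin (0.71), and TGFB1I1, an adhesion adaptor also called Hic-5 (0.60), were higher. The ZYX probe lay in a bright local background. CNN1, the calponin of smooth muscle, was not well above background on any array. In the same list 13 genes were at least 2-fold higher in PC3 control than in LNCaP control and 1 was lower.

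The genes of the RHOA pathway, which lies upstream of SRF, included the largest PC3 ratio among the lists. Of 15 genes, 3 were at least 1.5-fold higher in PC3 after ATO and 1 was lower. RHOB, an endosomal GTPase, read 1292 units in PC3 control and 13254 in PC3 ATO, a log2 ratio of 3.41, and its second probe gave 3.40. RHOA and RHOC, which drive stress fibres, had ratios of 0.77 and 0.75, and DIAPH3, a formin that builds filaments, had -0.71. In LNCaP the ratio of RHOA was -0.13 and that of RHOB 0.77.

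The early genes that SRF shares with growth factor signals held 5 with a value in PC3, of which 0 reached 1.5-fold higher and 0 lower. EGR2, named here for its value, read 80 units in PC3 control and 41.5 in PC3 ATO, the latter not well above background, and was at least 1.44-fold lower. JUNB and IER2 had ratios of 0.37 and 0.36, IER3 0.16 and MCL1, an inhibitor of cell death, -0.10. EGR1, EGR3, FOS, FOSB and NR4A1 were not well above background on any array. Among 12 reference genes read by their brightest probes 0 differed by 1.5-fold, and HPRT1 had a ratio of -0.39 and YWHAZ one of 0.17. SDHA had -0.09 by its brightest probe, and its other measured probes gave -0.24, -0.19 and 0.67, the last past 1.5-fold.

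**Figure D3:**
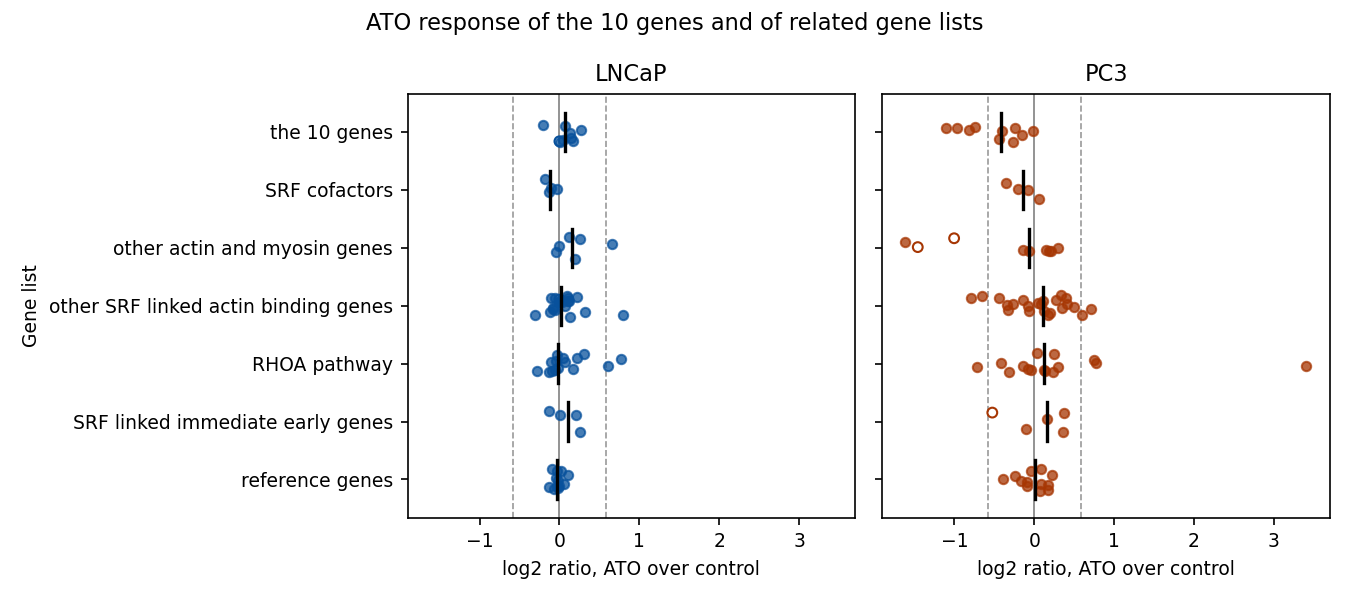
The log2 ratio of ATO over control in LNCaP and in PC3 is plotted for the 10 genes and for the lists of related genes, with each point a gene, open points bounds, black bars the medians of the lists and dashed lines the 1.5-fold limits. In PC3 the 10 genes have a median of -0.42 and the other lists shown have medians between -0.14 for the SRF cofactors and 0.16 for the early genes, and RHOB lies farthest right at 3.41.

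The PC3 ratios were recomputed under other ways of processing the arrays. Counting the reported one there were 13. ACTG1, MYL9 and TAGLN differed by 1.5-fold in 13. SRF did so in 11, since its ratio was -0.55 with scaling to the 50th percentile and -0.50 with normexp background correction. Every way but the median over probes read TAGLN by its brighter probe. The second TAGLN probe, read alone under the scalings, background correction and spot rule, lay between -0.50 and -0.21, short of 1.5-fold. Scaling to the 50th percentile put the median of all genes at 0.19, so that the ratios of VCL and TPM1 there, given above, were over 0 but below that median. At 2-fold in place of 1.5-fold, 1 gene, TAGLN, was lower in PC3, by its brighter probe only. The share of all genes at 2-fold was not computed, so this count has none beside it.

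**Figure D4:**
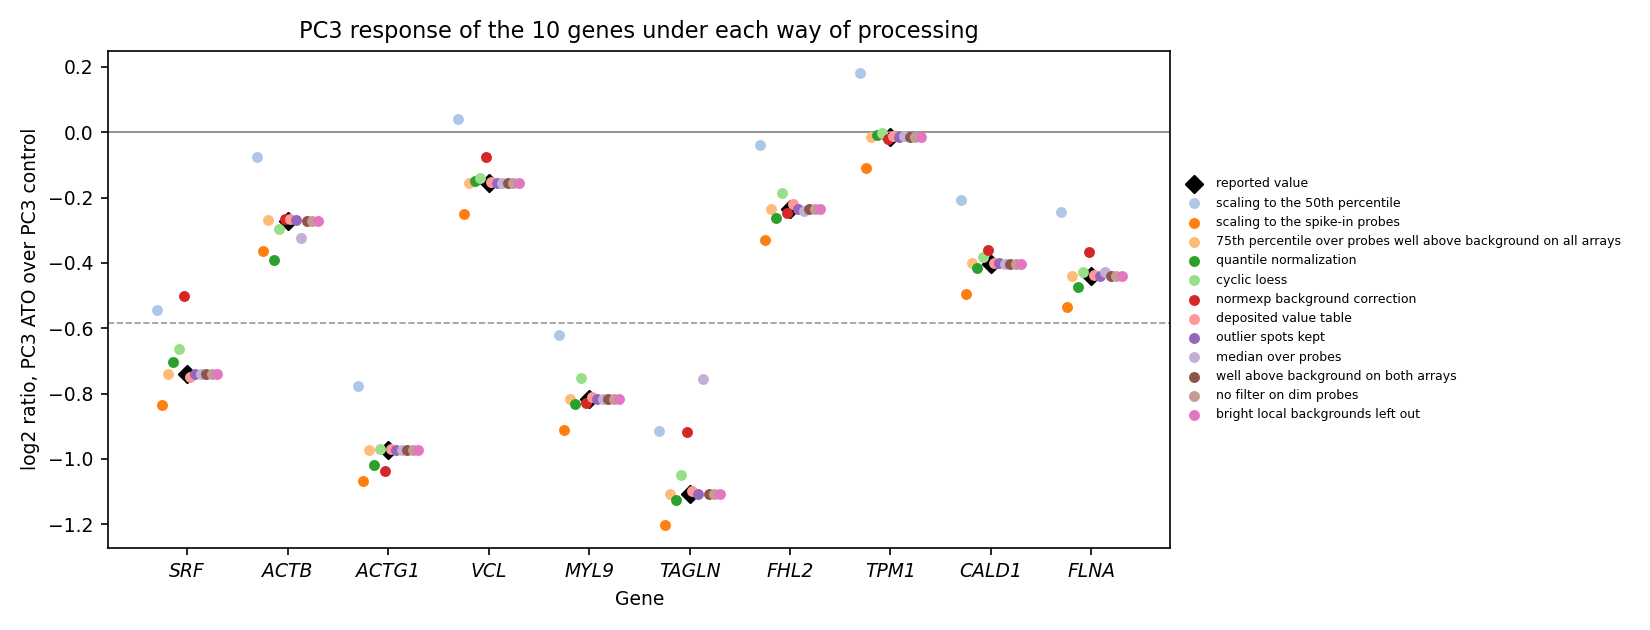
The PC3 log2 ratio of ATO over control is plotted for the 10 genes, 1 array per group, with the reported value as a diamond and each other way of processing as a coloured point, and a dashed line at 1.5-fold lower. The points of ACTG1, MYL9 and TAGLN all lie below the line, and the 50th percentile points of VCL and TPM1 lie above 0. TAGLN is read by its brighter probe in all but the median over probes.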

How the data were processed

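Total RNA of each group was labelled with 1 dye and hybridised to an Agilent human expression array. The study's methods name GenUS BioSystem as having run the arrays. The deposited scanner files hold the intensity of each spot on a linear scale, made with Agilent Feature Extraction 9.5.3.1 per the file headers, with background subtracted. The deposited value table holds a ratio of that intensity to the array's 75th percentile. The study's methods name GeneSpring GX and no scaling.

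After removal of outlier spots, each probe's log2 intensity was the mean of its spots, less the 75th percentile of all probes on that array. A probe was well above background where over 50% of its spots were so called. A gene was its brightest probe with values on all 4 arrays. Where only 1 of a pair of arrays was well above background, the other was set to the lowest such intensity there and the fold is "at least". A local background was bright above the array's median plus 3 MADs. Call limits were 1.5-fold for ATO and 2-fold between controls. limma 3.58.1 (R 4.3.3, two-sided, Benjamini-Hochberg) was checked on simulated data. With 1 array per group, precision is limited by the number of arrays.

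All 10 genes, the lists and the tests were chosen with earlier results of these data known. Named besides them were MKL1, MKL2, RHOA, RHOB, ACTA2, CNN1, GAPDH and, per list, the 4 genes with the PC3 ratio farthest from 0 among those well above background on both arrays. Line and cell type markers and genes not well above background on any array are named too. Some genes that this rule names are not reported here. For SRF, ACTB and MYL9 the 3 genes with the nearest profile were sought. The alternatives were other scalings, background correction, spot and probe rules, filters, limits and the deposited table.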

Additional observations from a re-analysis of the deposited data

Results flagged for a closer look

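For 4 genes the single ATO array differed from its control in opposite directions in the lines, beyond the technical SD of 0.13 in each. ACTB had a log2 ratio of 0.14 in LNCaP and -0.27 in PC3, VCL 0.27 and -0.16, TAGLN 0.14 and -1.11, and FLNA 0.17 and -0.44. With 1 array per group the difference between the lines was not tested. The sign turned for ACTB in LNCaP with normexp background correction (-0.07) and for VCL in PC3 with scaling to the 50th percentile (0.04). Other values fell within the technical SD. With normexp these were TAGLN (0.08) and FLNA (0.10) in LNCaP and VCL in PC3 (-0.08). TAGLN in LNCaP was also within it with scaling to the 50th percentile (0.121), quantile normalization (0.127) and the deposited values (0.111). With outlier spots kept it was 0.1327, just under the LNCaP technical SD of 0.1329. ACTB in LNCaP was within it with scaling to the 50th percentile (0.1275) and with the median over probes (0.088). ACTB in PC3 was -0.08 with scaling to the 50th percentile, and its second probe gave 0.03 in LNCaP.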

How the results depend on the processing

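No paired analysis was possible because the labels number no replicates, other than the limma fit with cell line as a block, and with 1 array per group none could be left out. The median difference of the 10 genes between the controls, 1.40, became 0.95 with scaling to the 50th percentile, 1.91 with scaling to spike-in probes, 1.56 with the percentile over probes well above background on all arrays, 1.65 with quantile normalization, 1.71 with cyclic loess, 1.26 with normexp and 0.59 over genes well above background on both arrays. The median of all genes, -0.047, was then -0.49 with the 50th percentile and 0.38 with the spike-in probes. The PC3 median was -0.23 with the 50th percentile, and the LNCaP median 0.22 with the spike-in probes, which put the median of all genes at 0.14. The median difference between the responses of the lines, -0.54, was -0.33 with the 50th percentile and -0.78 with the spike-in probes, settings applied to it after seeing the data. With no filter on dim probes 2 genes differed by 1.5-fold in LNCaP, FHL2 and MYL9, both at values not well above background on the ATO array. At 2-fold, 1 gene, TAGLN by its brighter probe, differed in PC3, and the share of all genes was not computed. The other 85 medians and counts moved by less than the technical spread or stayed within 1.5 times, and no called value turned its direction. None of the 10 genes passed limma under any setting (0), while 5 genes of the array passed with the 50th percentile and 2 with the spike-in probes.

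A single array per group, the share of spots not well above background and, for dim probes such as MYL9 in LNCaP, the background itself limit these values.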

Other observations

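The genes whose profile over the 4 arrays was nearest to that of SRF, among 11016 genes well above background on all 4, were XPO5, PCGF6 and FAM69A, at root mean square distances of 0.0112, 0.0367 and 0.0369 on the log2 scale. For ACTB they were DHX57, YEATS2 and KLHDC5, at 0.0153, 0.0209 and 0.0253. MYL9 was not well above background on all 4 arrays and has no such genes. A profile of 4 points with so many genes to choose from gives close matches readily, and these are descriptions only.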
